A study of Mus musculus with 6 samples.

Results

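The 8 genes of mouse chromosome 4 whose products fold, thread, escort or take apart proteins were followed through 6 libraries: Vcp, Dnaja1, Bag1, Chmp5, Creb3, Asph, Erp44 and Sec61b. They were picked by name, and each was kept only if the intervals of its row in the deposited count files lay on the exons of that gene on the GRCm38 build. All 8 passed: 100% of each row lay on its own exons in the GENCODE M21 annotation, and each row covered 100% of them. That is not the rule in these files, since only 1740 of 53546 rows, 761 of them on chromosome 4, lie on their named gene to at least 90% of their length. Such rows are called in register below. The build the reads were aligned to is not given in the file headers, and the submitters' processing notes name mm8 and mm9 without a role, so each count below is that of its gene only as far as the alignments share the GRCm38 positions. Counts followed GRCm38 positions where rows and names part: 1073 rows under 10% on their named gene and at least 90% on other GRCm38 exons held a mean over libraries of 13.8 CPM per kb (CPM is defined below), beside 3.21 CPM per kb in 41194 rows at most 10% on exons. In these shares, bases shared by overlapping genes count once for each gene. The row named Myh6 was at 0 in all 6 libraries, while the rows lying on the exons of Myh6 ran from 14664 to 18993 CPM in 4 of them.

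RNA labelled as that of frozen intervertebral disc from C57BL/6 mice was sequenced after a TruSeq library preparation. Of the libraries, 3 had a wild type label and 3 the label intervertebral disc degeneration, called degeneration 1 to 3 below. The labels name no allele, agent or surgery for the degeneration group and do not say whether the libraries came from separate animals, and p-values therefore reflect how far these libraries differ among themselves, perhaps for technical reasons. Retina is named in the design text of the series, with mice 21 days old, whereas each sample's own label names the disc, and the grouping follows the latter.

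Totals were 3119215 to 4009562 counted read pairs per library, at which 3 counts correspond to 0.748 to 0.962 CPM, the count of a gene scaled to its library total and the unit of level used below. Degeneration 1 stood apart from the other 2 libraries of its group. Summed over the 5 heart muscle markers that could be located of 14 listed (Myh6, Myl3, Ryr2, Lmod2 and Ttn), it held 39048 CPM, beside 35392 to 38328 CPM across wild type, against 39.1 and 38.5 CPM in degeneration 2 and 3. The 6 located kidney tubule markers of 13 listed (Slc12a3, Slc34a1, Lrp2, Cubn, Calb1 and Egf) summed to 33.3 to 45.2 CPM across wild type, 49.1 CPM for degeneration 1, and 10374 and 8252 CPM for degeneration 2 and 3. Slc34a1 was at 0 in all wild type libraries. Of the lists for the labelled tissue, the 6 located cartilage and disc matrix genes of 15 listed summed to 22.04 to 42.6 CPM, and Acan, the main disc proteoglycan, was at 0 in degeneration 2 and 3. The 4 located notochord genes of 9 listed came to 20.2 to 35.9 CPM in the wild type libraries and degeneration 1, with 479 and 487 CPM in degeneration 2 and 3, most of it Cd24a and Krt8, and Krt19 was at 0 in all 6. The 8 located annulus and tendon fibroblast genes of 11 listed came to 1018 to 3347 CPM in the wild type group and 558 to 958 CPM in the other. Each of the 8 genes is therefore given for all 6 libraries and again without degeneration 1. In bulk RNA, fewer cells of a type and less RNA per cell cannot be told apart.

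The 8 genes cover the path of a protein through the endoplasmic reticulum (ER) and the cytosol. New secretory and membrane proteins enter the ER through the Sec61 channel, are oxidised and checked by disulfide isomerases, and, when they fail, are pulled back out by the ATPase p97 for the proteasome. In the cytosol HSP70 chaperones fold proteins in cycles of ATP hydrolysis, with HSP40 proteins and nucleotide exchange factors setting the pace, and transcription factors held in the ER membrane report on the state of that membrane. Striated muscle adds a specialised reticulum, the sarcoplasmic reticulum, which stores and releases calcium.

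With all 6 libraries, none of the 8 genes changed between the groups by the edgeR quasi-likelihood test, with a Benjamini-Hochberg adjusted p under 0.05 as the threshold. None of the 8 was below an unadjusted p of 0.05 either, and DESeq2 called 0 of 8. Over all rows tested, edgeR called 0 of 14967 (0%), 17.3% had an unadjusted p under 0.05, and DESeq2 called 5.03% of 18806. All 8 rows passed the count filter, which sets aside rows low in too many libraries. Without degeneration 1, 5 of the 8 passed the adjusted threshold: Dnaja1, Chmp5 and Sec61b rose, and Vcp and Asph fell. Over all 17272 rows of that fit, 25.9% rose and 24.5% fell, so calls in either direction were common among all rows as well. In a fit of degeneration 1 alone against wild type, in which the lone library is assumed to vary like the others, 0 of 8 were called, beside 0.0125% of all rows (2 rows, Txnip and Gm16538, named as the files name them and singled out after their values were seen).

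By single library, in CPM, 6 of the 8 genes were higher in both degeneration 2 and degeneration 3 than in every wild type library, and Vcp and Asph were lower in both than in every wild type library. Of all tested rows 49.6% were higher in this way and 22.6% lower. On the scale the test uses (TMM factors, which correct for a few very abundant genes taking up a library), 4 of the 8 were higher in both and 2 lower in both. The shares of all tested rows on that scale were not computed, so these counts have no background beside them. CPM and TMM differ here because the TMM factors were 0.864 to 0.940 in wild type and degeneration 1, and 1.234 and 1.248 in degeneration 2 and 3. Fitted with library totals alone, the median log2 fold change over all rows moved up by 0.22. The median log2 fold change of the 8 genes was 0.26 with all 6 libraries, beside -0.03 over the 265 tested rows in register on chromosome 4 and -0.00032 over all rows. Without degeneration 1 these medians were 0.25, -0.08 (290 rows) and 0.03.

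**Figure D1:**
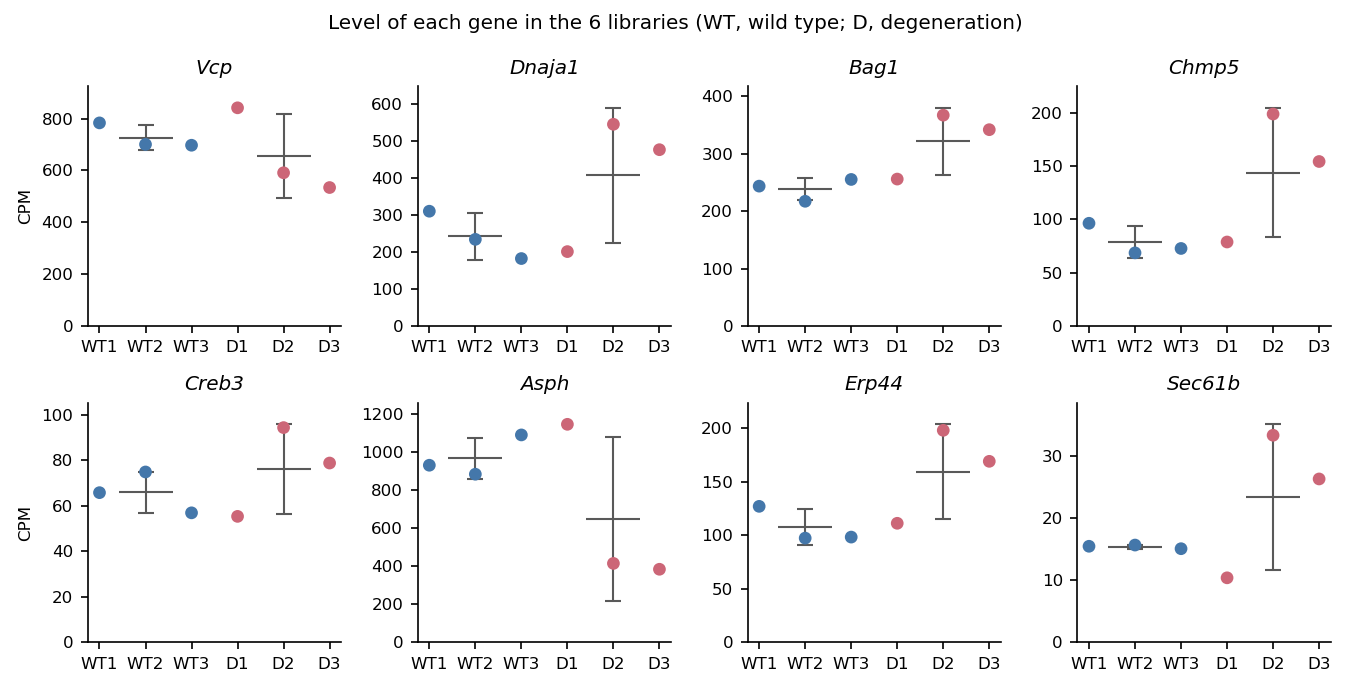
Level of each of the 8 genes in CPM (linear axes from 0) in the 3 wild type (blue, WT1 to WT3) and 3 degeneration libraries (red, D1 to D3), with the mean of each group (wide bar) and its SD (whiskers, n = 3). D2 and D3 stand above all wild type points for 6 genes and below them for Vcp and Asph, while D1 lies near the wild type points.

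Vcp encodes p97, the hexameric ATPase that draws ubiquitylated proteins out of membranes and complexes. The gene (ENSMUSG00000028452) lies at chr4:42979963-43000507 on the minus strand, and 7.26% of its exon bases are shared with the antisense gene 1700022I11Rik, which counted 3.77 to 7.05 CPM in the 6 libraries. Its level was 783, 700.1 and 697 CPM across wild type 1 to 3, against 841, 591 and 534 CPM in degeneration 1 to 3. Degeneration 1 was the highest of all 6 libraries and degeneration 2 and 3 the lowest, so the groups overlapped. The group means were 727 ± 48.9 and 655 ± 164 CPM (SD, n = 3 each). With all 6 libraries the log2 fold change was -0.30 ± 0.36 (SE; edgeR adjusted p = 0.646). Without degeneration 1, Vcp fell, by 0.79 ± 0.15 on the log2 scale (edgeR adjusted p = 0.000598), and degeneration 1 alone stood 0.29 above wild type on that scale (edgeR adjusted p = 0.809). Degeneration 2 and 3 also held the heart muscle markers at 39.1 and 38.5 CPM and the kidney tubule markers at 10374 and 8252 CPM, and the part of these in the fall of Vcp, as in every change named below, was not tested.

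The 130 bases before the annotated start of Vcp are shown because they hold the densest group of stress motifs found near any of these genes. They span chr4:43000508-43000637 (GRCm38.p6, from RefSeq) and are read 5' to 3' on the minus strand, with motif matches in capitals.
Vcp upstream: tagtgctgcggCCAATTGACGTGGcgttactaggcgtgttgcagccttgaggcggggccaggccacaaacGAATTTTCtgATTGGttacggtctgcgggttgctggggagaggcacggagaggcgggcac
From the left, the capitals mark a CCAAT box, TGACGTGG (the unfolded protein response element bound by bZIP factors such as XBP1), GAATTTTC (a match to GAANNTTC, the core of a heat shock element) and a CCAAT box on the other strand. Counted from the start, they begin at -119, -114, -60 and -50. Windows from 250 bases before to 50 after the start were in the RefSeq table for 7 of the 8 genes (10 windows, none for Asph), and both strands were searched. Over all 32851 mouse windows, TGACGTGG occurred in 0.676%, GAANNTTC in 7.86%, TTCNNGAA in 8.52%, TGACGTCA (the cyclic AMP response element) in 1.79%, CCAAT in 37.4% and the full ER stress element, which contains a CCAAT box, in 0.119%. Dnaja1 held GAAAATTC, also a GAANNTTC match, in 1 of its 3 windows and CCAAT in 2, and both windows of Erp44 held CCAAT. The windows of Bag1, Chmp5, Creb3 and Sec61b held none of these letters. A match of letters is a description and not a bound site, and these libraries did not measure binding.

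Dnaja1, an HSP40 that delivers clients to HSP70 and stimulates its ATPase, lies at chr4:40722150-40737149 on the plus strand (ENSMUSG00000028410). Its level was 311, 234 and 182 CPM across wild type 1 to 3, against 201, 546 and 477 CPM in degeneration 1 to 3. Wild type alone spanned 1.70-fold, degeneration 1 lay inside that span, and degeneration 2 and 3 lay above it at 2.25 and 1.97 times the wild type mean. Group means were 242 ± 64.5 and 408 ± 182 CPM (SD, n = 3 each). The log2 fold change was 0.48 ± 0.34 with all 6 libraries (edgeR adjusted p = 0.463). Without degeneration 1 Dnaja1 rose by 0.66 ± 0.19 (log2, SE; edgeR adjusted p = 0.0107), while degeneration 1 alone stood at -0.19 (edgeR adjusted p = 0.908). Its counts carry 2 limits: the antisense gene Smu1 shares 7.05% of its exon bases, and 3 processed pseudogenes on other chromosomes match it at 97.1% to 99.4% over 1194 bases. Pairs that the alignments mark as mapping to both places would be left out.

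Bag1 (chr4:40936398-40948294, minus strand, ENSMUSG00000028416) makes the nucleotide exchange factor that opens HSP70 and links it to the proteasome. It counted 244, 217 and 255 CPM across wild type 1 to 3, against 256, 367 and 342 CPM in degeneration 1 to 3. This was the only gene of the 8 whose groups did not overlap in CPM, by the narrow step from 255.3 in wild type 3 to 256.0 in degeneration 1, and 19.8% of all tested rows did not overlap either. After TMM scaling the groups overlapped for all 8, and the share of all rows on that scale was not computed. Bag1 then ran from 247 to 281 CPM in the wild type group and from 274 to 298 CPM in the other. Its log2 fold change was 0.20 ± 0.18 (edgeR adjusted p = 0.539), and without degeneration 1 it was 0.15 ± 0.14 (edgeR adjusted p = 0.386). The group means were 239 ± 19.5 and 322 ± 58.4 CPM (SD, n = 3 each).

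Chmp5 (chr4:40948407-40965303, plus strand, ENSMUSG00000028419) is a subunit of ESCRT-III, the filament that pinches off vesicles inside the endosome. Its level was 96.3, 68.5 and 72.7 CPM across wild type 1 to 3, against 78.7, 199 and 154 CPM in degeneration 1 to 3. Degeneration 1 sat within wild type, and degeneration 2 and 3 stood at 2.51 and 1.95 times the wild type mean, the first being the largest multiple among the 8 in that library. Group means were 79.1 ± 15.0 and 144 ± 60.7 CPM (SD, n = 3 each). With all 6 libraries its log2 fold change was 0.60 ± 0.27 (edgeR adjusted p = 0.306). Without degeneration 1 Chmp5 rose by 0.74 ± 0.17 (log2, SE; edgeR adjusted p = 0.00272).

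Creb3, also called Luman, is a bZIP factor anchored in the ER membrane and freed by cleavage in the Golgi (chr4:43562332-43567060, plus strand, ENSMUSG00000028466). It counted 65.8, 74.9 and 57.0 CPM across wild type 1 to 3, against 55.4, 94.4 and 78.9 CPM in degeneration 1 to 3. Degeneration 1 was the lowest library and degeneration 2 the highest. Group means were 65.9 ± 8.98 and 76.2 ± 19.7 CPM (SD, n = 3 each). The log2 fold change was -0.03 ± 0.19 with all 6 libraries (edgeR adjusted p = 0.936) and -0.03 ± 0.17 without degeneration 1 (edgeR adjusted p = 0.906), and it was 0.21 when scaled by library totals alone. No direction can be given for it. Creb3 also shares 15.2% of its exon bases with Tln1 and 5.61% with Gba2, both on the other strand. Tln1, the actin linker talin, counted 1241, 1309 and 1050.2 CPM across wild type, against 964, 1652 and 1615 CPM in degeneration 1 to 3, far above Creb3. Read pairs that touched rows of both genes were left out by the counting tool's default.

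Asph (chr4:9448069-9669344, minus strand, ENSMUSG00000028207) makes the ER enzyme that hydroxylates aspartate and asparagine in EGF-like domains, and from the same locus junctin and junctate, calcium-handling proteins of the reticulum. Its level was 931, 884 and 1090.3 CPM across wild type 1 to 3, against 1146, 415 and 384 CPM in degeneration 1 to 3. The 4 libraries in which the heart muscle markers summed to 35392 CPM or more ran from 884 to 1146 CPM, and degeneration 2 and 3 were at 0.429 and 0.397 times the wild type mean. Group means were 968 ± 108 and 649 ± 431 CPM (SD, n = 3 each). With all 6 libraries the log2 fold change was -0.67 ± 0.60 (edgeR adjusted p = 0.553). Without degeneration 1 Asph fell by 1.70 ± 0.16 on the log2 scale (edgeR adjusted p = 2.34e-06), the largest change among the 8 in that fit, and degeneration 1 alone stood at 0.32 (edgeR adjusted p = 0.809). The annotation lists 15 coding transcripts of Asph, with coding lengths of 220 to 2223 bases, and counts summed over the gene cannot say which of them changed. Clvs1, on the other strand, shares 14.3% of the exon bases and counted 5.24, 5.59 and 6.33 CPM across wild type, 2.20 CPM in degeneration 1 and 0 in degeneration 2 and 3.

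Erp44 (chr4:48193323-48279558, minus strand, ENSMUSG00000028343) is the disulfide isomerase relative that retrieves unassembled proteins from the Golgi. It counted 127, 97.3 and 98.3 CPM across wild type 1 to 3, against 111, 198 and 169 CPM in degeneration 1 to 3. Degeneration 1 lay within wild type and the other 2 degeneration libraries above it. Group means were 108 ± 16.8 and 159 ± 44.2 CPM (SD, n = 3 each). Its log2 fold change was 0.33 ± 0.19 with all 6 libraries (edgeR adjusted p = 0.383) and 0.35 ± 0.15 without degeneration 1 (edgeR adjusted p = 0.0728), so it passed the threshold in neither fit.

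Sec61b (chr4:47474658-47483242, plus strand, ENSMUSG00000053317) is the small beta subunit of the Sec61 channel. It had the fewest reads of the 8, with 62, 56 and 50 counts across wild type 1 to 3, against 33, 115 and 82 counts in degeneration 1 to 3. These are 15.5, 15.7 and 15.1 CPM against 10.4, 33.3 and 26.3 CPM. Degeneration 1 was the lowest library, and its exact Poisson 95% interval of 7.15 to 14.6 CPM overlaps that of wild type 1, 11.9 to 19.8 CPM. Such intervals cover counting error only. The group means were 15.4 ± 0.299 and 23.3 ± 11.7 CPM (SD, n = 3 each), and the log2 fold change was 0.32 ± 0.33 (edgeR adjusted p = 0.599). Without degeneration 1 Sec61b rose by 0.53 ± 0.20 (log2, SE; edgeR adjusted p = 0.0437), and degeneration 1 alone stood at -0.49 (edgeR adjusted p = 0.809). It has 3 close copies on other chromosomes, at 95.7% to 98.3% identity, and pairs marked as mapping to both would be left out. Vcp has 1 such copy, Vcp-rs on the X chromosome, 99.05% identical over 2421 bases, and the other 5 genes apart from Dnaja1 have none at 95% over 100 bases.

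**Figure D2:**
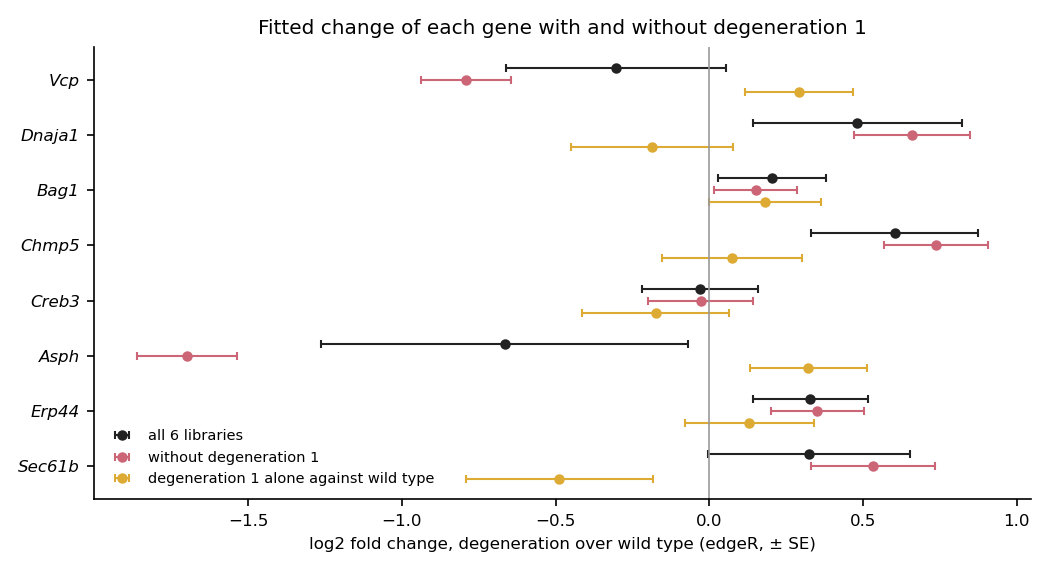
Fitted log2 fold change of each gene, degeneration over wild type (edgeR, points; whiskers, SE), with all 6 libraries (black), without degeneration 1 (red) and for degeneration 1 alone against wild type (yellow). Asph and Vcp lie furthest below 0 without degeneration 1, at -1.70 and -0.79, and above 0 for degeneration 1 alone, at 0.32 and 0.29.

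Ratios of counts within a library need no scaling between libraries. Asph counted 1.19, 1.26 and 1.56 times Vcp in wild type, 1.36 times in degeneration 1, and 0.703 and 0.720 times in degeneration 2 and 3. Dnaja1 counted 0.396, 0.335 and 0.262 times Vcp in wild type, 0.239 times in degeneration 1, and 0.924 and 0.894 times in the other 2. The ratio of Chmp5 to Vcp was 0.0978 to 0.123 in wild type, 0.0936 in degeneration 1, and 0.336 and 0.289 in degeneration 2 and 3. Erp44 to Vcp ran at 0.139 to 0.162 in wild type, 0.132 in degeneration 1, and 0.335 and 0.317 in degeneration 2 and 3. In each of these 4 ratios degeneration 2 and 3 lay outside the wild type range on the same side, and degeneration 1 lay near or inside it. The ratio of Sec61b to Erp44 was 0.122 to 0.161 in wild type, 0.0935 in degeneration 1, and 0.168 and 0.156 in degeneration 2 and 3, so that 1 of the last 2 fell inside the wild type range. The ratio of Asph to Erp44 was 7.33, 9.08 and 11.1 in wild type and 10.3 in degeneration 1 beside 2.10 and 2.28 in degeneration 2 and 3. These ratios are described without a test, since 3 libraries against 3 cannot give an exact permutation p below 0.1 (two-sided) and the groups overlapped.

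**Figure D3:**
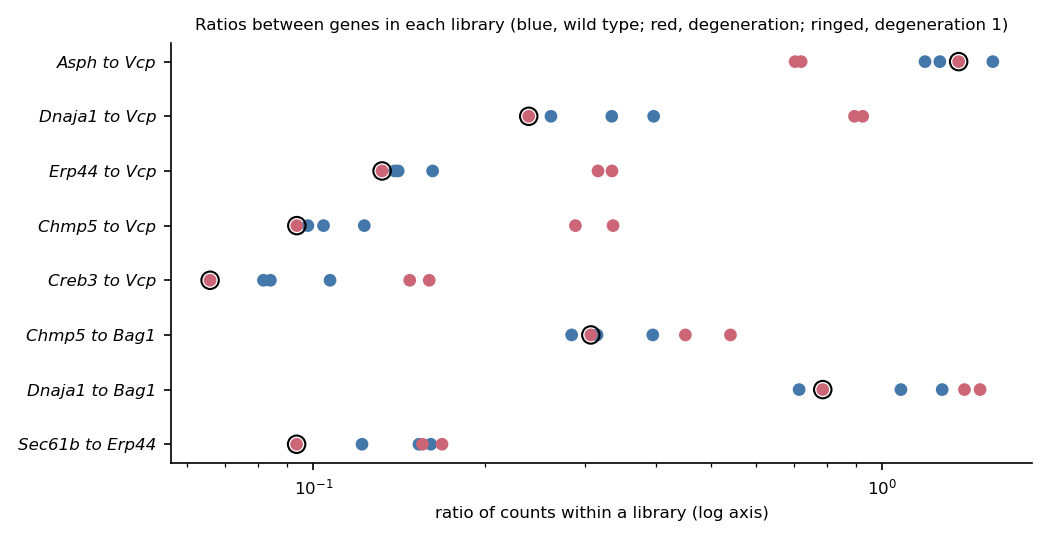
Ratio of the counts of one gene to another within each library (log axis), with wild type in blue, degeneration in red and degeneration 1 ringed. Degeneration 2 and 3 stand apart from the other 4 libraries in the 5 ratios to Vcp, with Asph to Vcp at 0.703 and 0.720 beside at least 1.19 elsewhere.

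Compared per kilobase of row, Bag1 was the most abundant of the 8 in all 6 libraries, at 177 ± 14.5 CPM per kb in wild type and 239 ± 43.3 CPM per kb in degeneration (SD, n = 3 each). In wild type Vcp followed at 150 ± 10.1, then Asph at 60.1 ± 6.72, Chmp5 at 52.1 ± 9.86, Erp44 at 31.5 ± 4.93, Dnaja1 at 28.1 ± 7.47, Creb3 at 27.8 ± 3.79 and Sec61b at 12.1 ± 0.235 CPM per kb. Asph and Chmp5 overlapped in that order, as did Erp44, Dnaja1 and Creb3, and the lowest library of Bag1 (161.1) met the highest of Vcp (161.4). In degeneration the means were 135 ± 33.7 for Vcp, 94.7 ± 39.9 for Chmp5, 47.3 ± 21.1 for Dnaja1, 46.6 ± 12.9 for Erp44, 40.3 ± 26.8 for Asph, 32.1 ± 8.28 for Creb3 and 18.4 ± 9.24 CPM per kb for Sec61b, with spreads wide enough that from Vcp down the neighbours overlapped. Asph held rank 3 or 4 in wild type and degeneration 1 and rank 8 and 7 in degeneration 2 and 3, while Dnaja1 moved from rank 6 or 7 to rank 4 in both. The 8 genes together took 0.229% to 0.257% of counts in wild type and 0.270%, 0.244% and 0.217% in degeneration 1 to 3, so their summed share changed little while its makeup shifted from Asph and Vcp toward the others in degeneration 2 and 3.

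Of the 8 genes, 4 start back to back with another protein-coding gene without overlapping it, within 1000 bases. Pairs whose spans overlap, such as Creb3 and Tln1 with starts 359 bases apart, were left out. The short stretches between the starts are shown because each is flanked by a pair that can be compared. All are written on the plus strand, 5' to 3', from RefSeq windows on GRCm38, with the gene on the minus strand at the left. None holds a full match to the 6 motifs searched, so nothing stands in capitals. A CCAAT box in the windows of Erp44, at chr4:48279757-48279761, runs across the right end of the Erp44 and Invs stretch.
Bag1 and Chmp5, chr4:40948295-40948406: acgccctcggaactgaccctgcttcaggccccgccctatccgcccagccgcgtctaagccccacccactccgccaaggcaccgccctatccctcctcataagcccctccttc
Erp44 and Invs, chr4:48279636-48279759: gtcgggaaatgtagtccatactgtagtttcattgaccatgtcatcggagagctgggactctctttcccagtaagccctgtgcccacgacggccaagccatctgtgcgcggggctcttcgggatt
Alg2 and Sec61b, chr4:47474411-47474657: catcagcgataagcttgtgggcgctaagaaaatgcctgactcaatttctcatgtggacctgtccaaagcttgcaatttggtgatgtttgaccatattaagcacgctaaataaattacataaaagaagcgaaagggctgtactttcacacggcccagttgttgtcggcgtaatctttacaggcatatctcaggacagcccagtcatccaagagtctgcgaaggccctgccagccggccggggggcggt
These are 112, 124 and 247 bases long, with a GC content of 67.9%, 55.6% and 49.4% and 8, 7 and 11 CpG dinucleotides. From annotated start to annotated start the pairs are 113, 202 and 325 bases apart. A stretch was cut where a RefSeq start or the edge of a RefSeq window lay between the annotated starts.

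Within the closest pair the partners did not keep a fixed ratio. Chmp5 counted 0.395, 0.315 and 0.285 times Bag1 in wild type, 0.308 times in degeneration 1, and 0.541 and 0.451 times in degeneration 2 and 3. Invs, which makes the ciliary protein inversin, counted 75.3, 60.1 and 64.5 CPM across wild type 1 to 3, against 57.3, 151 and 142 CPM in degeneration 1 to 3. Its ratio to Erp44 was 0.593 to 0.656 in wild type, 0.516 in degeneration 1, and 0.764 and 0.843 in the other 2. Alg2, a mannosyltransferase that builds the sugar donor for N-glycosylation, counted 71.3, 73.5 and 68.7 CPM across wild type, against 57.9, 109.5 and 95.2 CPM in degeneration 1 to 3. Alg2 counted 4.56 to 4.70 times Sec61b in wild type, 5.58 times in degeneration 1, and 3.29 and 3.62 times in degeneration 2 and 3. In all 3 pairs both partners were higher in degeneration 2 and 3 than in every wild type library, as 49.6% of all tested rows were, and degeneration 1 was the lowest library for both Sec61b and Alg2.

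**Figure D4:**
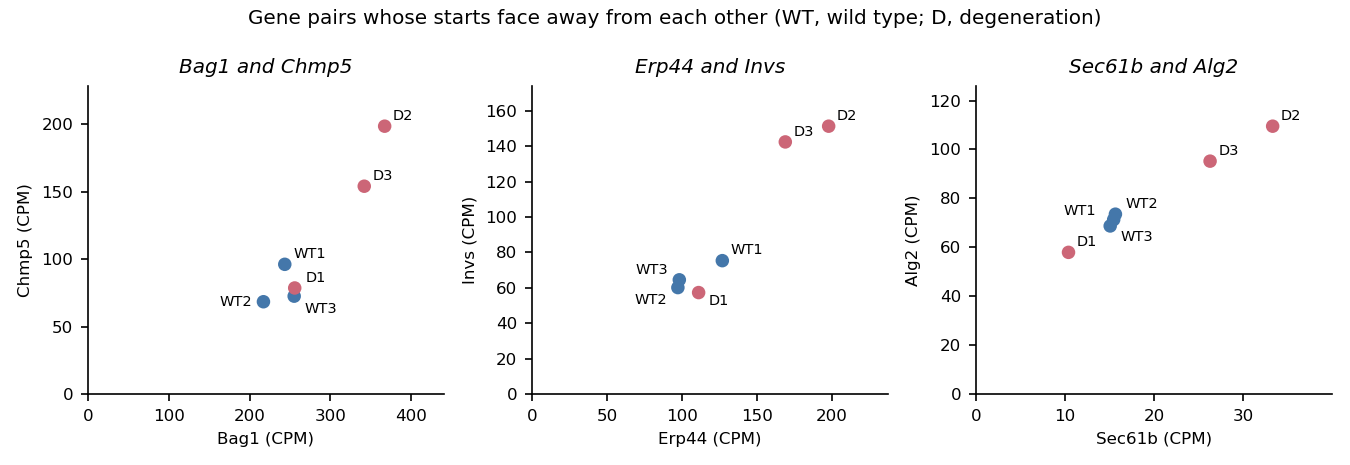
CPM of each back-to-back partner (vertical axis) against that of its neighbour (horizontal axis) in the 6 libraries, with wild type in blue and degeneration in red. In each pair D2 and D3 lie toward the upper right of the 4 other libraries, and D1 lies near or below wild type.

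Among the 464 rows in register that averaged at least 5 CPM, those most like each gene across the 6 libraries were found by the root mean square difference of centred log2(CPM + 1), smaller being more alike. Vcp was nearest to Ecpas (0.069), a proteasome adaptor on the same chromosome, and to Usp14 (0.077), a ubiquitin hydrolase bound to the proteasome. Ecpas counted 1084, 1007 and 1091 CPM across wild type, against 1221, 873 and 847 CPM in degeneration 1 to 3. Dnaja1 was nearest to Mpp7 (0.11) and Grin3a (0.12), Bag1 to Tmem68 (0.050) and Dpy19l4 (0.055), and Chmp5 to Wasl (0.099), which promotes actin branching, and Fzd8 (0.10), a Wnt receptor. Creb3 lay closest to Pigo (0.065), an enzyme of GPI anchor synthesis, and Nrf1 (0.068), Erp44 to Ing3 (0.072) and Snx30 (0.092), and Sec61b to Nipsnap3b (0.096) and Ccdc136 (0.13). The nearest rows to Asph were further off, Pdp1 (0.14), the phosphatase that activates pyruvate dehydrogenase, and Ndufa5 (0.15), a subunit of respiratory complex I. Ndufa5 counted 943, 906 and 978 CPM across wild type, against 1048, 348 and 295 CPM in degeneration 1 to 3. Among the 8 themselves Bag1 and Erp44 were the most alike (0.16), followed by Dnaja1 and Chmp5 (0.17), and Dnaja1 and Asph the least (1.22). These distances are over 6 libraries that share their totals and the split of degeneration 1 from 2 and 3, and they are given as a description.

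The rest of these pathways was read from loci, in which rows were renamed by the GRCm38 gene they cover, since most rows lie off the gene they are named for. No share of a row's own length on exons was required, so a row lying mostly off exons could count for a gene. The exon bases covered were 143 of 3967 for Nsfl1c and 127 of 2108 for Stip1, beside all 2735 for Asns. The level of a locus thus need not be that of the whole gene. Of 208 other genes on the 7 pathway lists, 79 could be located and 71 passed the count filter, many over a small part of their exons. With all 6 libraries edgeR called 0 of the 71 and 0% of the 5434 loci. At an unadjusted edgeR p under 0.05 were 11 of the 71 (7 higher, 4 lower), beside 651 higher and 413 lower among the 5434 loci. DESeq2 called 1 of 73, Sec62. Without degeneration 1, 13 of 71 rose and 17 fell, beside 26.8% of all loci that rose and 26.2% that fell. Changes of single genes in the next paragraphs are from the fit without degeneration 1. None of these loci passed with all 6 libraries, the lowest edgeR adjusted p being 0.232. The lists were chosen with earlier results of these libraries known.

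The list for p97 and ER-associated degradation, the partners of Vcp, held 39 other genes, of which 22 were located and tested. Of these 22, 5 rose and 0 fell without degeneration 1. Over all loci 26.8% rose and 26.2% fell in that fit, and these shares are the background for each list count below. The median log2 fold change of the list was 0.18 (0.01 over all loci). Os9, a lectin that hands misfolded glycoproteins to the ubiquitin ligase complex, counted 45.1, 41.7 and 32.0 CPM across wild type, against 41.9, 113 and 99.7 CPM in degeneration 1 to 3, and rose by 1.02 ± 0.17 without degeneration 1 (log2, SE; edgeR adjusted p = 0.00048), beside 0.82 ± 0.30 with all 6 libraries (edgeR adjusted p = 0.234). Sel1l, the scaffold of that complex, counted 58.9, 53.4 and 57.6 CPM across wild type, against 67.4, 122 and 112 CPM in degeneration 1 to 3, and rose by 0.65 ± 0.14 in that fit. Derl1 and Aup1, which also serve this pathway, rose as well. The p97 cofactor Nsfl1c counted 52.4 to 64.5 CPM across wild type, against 71.5 to 76.5 CPM in degeneration, with a log2 fold change after TMM scaling of -0.07 ± 0.16 without degeneration 1. Vcp itself fell in the same fit.

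On the cytosolic HSP70, HSP90, HSP40 and BAG list, to which Dnaja1 and Bag1 belong, 12 of 37 other genes were located and 11 tested. Hspa8, Hsp90aa1 and Hsp90ab1 were not among those located, so the counts cover only part of the list. Of the 11 tested genes 7 fell and 0 rose without degeneration 1. Its median log2 fold change was -0.60 there and -0.37 with all 6 libraries. Hspb6, a small heat shock protein abundant in heart muscle, counted 1236, 1092 and 919 CPM across wild type, 1118 CPM in degeneration 1 and 32.7 CPM in both degeneration 2 and 3, and fell by 5.45 ± 0.20 on the log2 scale without degeneration 1. Its log2 fold change with all 6 libraries was -1.41 ± 1.48 (edgeR adjusted p = 0.589). Ahsa1, which activates the ATPase of HSP90, counted 116, 119 and 93.1 CPM across wild type, against 99.5, 66.6 and 54.5 CPM in degeneration 1 to 3, and fell by 1.26 ± 0.17, beside -0.73 ± 0.36 with all 6 libraries (edgeR adjusted p = 0.310). Stip1, the adaptor between HSP70 and HSP90, fell by 1.04 ± 0.21, and the heat shock factor Hsf1 fell by 0.59 ± 0.14. Hspa4l, Dnajb5 and Cdc37 also fell. For Cdc37 this held after TMM scaling, while in CPM degeneration 2 lay inside the wild type range. Cdc37 counted 107 to 116 CPM across wild type, against 109.8 and 84.3 CPM in degeneration 2 and 3. Dnaja1 rose in the same fit, and Bag1 did not pass the threshold.

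On the list of ER chaperones and disulfide isomerases, the family of Erp44, 2 of 8 tested genes rose without degeneration 1 and 0 fell, with a median log2 fold change of 0.13. Pdia4 counted 148, 181 and 94.95 CPM across wild type, against 98.5, 288 and 274 CPM in degeneration 1 to 3, and rose by 0.59 ± 0.22 (edgeR adjusted p = 0.0423), beside 0.35 ± 0.38 with all 6 libraries. Sil1, the exchange factor of the ER HSP70, rose by 0.95 ± 0.31 from few reads, at 5.31 to 10.9 CPM across wild type, 7.56 CPM in degeneration 1, and 18.3 and 26.6 CPM in the other 2. Pdia6, Tmx3 and Dnajb11 stood between -0.24 and 0.24 on the log2 scale and did not pass.

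For translocation and glycosylation, the setting of Sec61b, 2 of 12 tested genes rose and 2 fell without degeneration 1. Sec62, a partner of the Sec61 channel, counted 104, 65.4 and 79.3 CPM across wild type, 94.8 CPM for degeneration 1, and 362 and 403 CPM for degeneration 2 and 3, and rose by 1.81 ± 0.16 (edgeR adjusted p = 5.87e-06). The log2 fold change with all 6 libraries was 1.49 ± 0.45 (edgeR adjusted p = 0.232). Sec61a2, a paralog of the channel's main subunit, counted 43.9, 43.1 and 37.7 CPM across wild type, against 49.4, 82.9 and 83.7 CPM in degeneration 1 to 3, and rose by 0.60 ± 0.15. Sec63 counted 95.9 to 110.0 CPM across wild type, against 102, 153 and 161 CPM in degeneration 1 to 3, with a log2 fold change of 0.21 ± 0.13 that did not pass. Rpn2, a subunit of the oligosaccharyltransferase, stood at 0.30 ± 0.14 and did not pass. Tram2 and Ostc were the 2 that fell after TMM scaling, by 0.52 and 0.87. In CPM degeneration 2 lay inside the wild type range for both. Tram2 counted 25.6 to 29.7 CPM across wild type, against 27.2 and 23.1 CPM in degeneration 2 and 3. Ostc counted 23.2 to 39.7 CPM across wild type, against 24.0 and 22.4 CPM in degeneration 2 and 3.

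Of the 5 tested ESCRT genes beside Chmp5, 1 rose without degeneration 1: Chmp1a counted 29.4, 27.4 and 25.6 CPM across wild type, against 38.1, 57.6 and 50.3 CPM in degeneration 1 to 3, a rise of 0.57 ± 0.16, beside 0.59 ± 0.14 with all 6 libraries (edgeR adjusted p = 0.232). Chmp4c, Hgs and Mvb12b, all under 50 CPM, did not pass. On the list of the unfolded protein response and membrane-bound bZIP factors, where Creb3 belongs, 3 of 6 tested genes rose and 2 fell. Creb3l2, a relative of Creb3, counted 26.7, 24.0 and 24.7 CPM across wild type, against 22.98, 62.9 and 53.5 CPM in degeneration 1 to 3, and rose by 0.81 ± 0.16, beside 0.61 ± 0.28 with all 6 libraries (edgeR adjusted p = 0.286). Eif2ak3, the ER stress kinase PERK, rose by 0.57 ± 0.16 and the stress gene Nupr1 by 1.35 ± 0.36, while asparagine synthetase (Asns) fell by 0.83 ± 0.25 and the sensor Atf6 by 0.88.

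The list around Asph, of sarcoplasmic reticulum calcium handling, had the lowest median: 6 of 7 tested genes fell and 0 rose without degeneration 1, with a median log2 fold change of -4.37 beside 0.01 over all loci. Its median with all 6 libraries was -1.16, and none of the 7 passed. Ryr2, the calcium release channel of heart muscle, counted 7264, 6098 and 6211 CPM across wild type, 6012 CPM for degeneration 1, and 12.7 and 17.3 CPM for degeneration 2 and 3. Atp2a2, the calcium pump SERCA2, counted 4219.9, 4096 and 4332 CPM across wild type, 5661 CPM for degeneration 1, and 287 and 252 CPM for degeneration 2 and 3. Trdn, the junctin-binding protein triadin, counted 249 to 463 CPM across wild type, against 391 CPM in degeneration 1, beside 1.74 and 0.641 CPM in degeneration 2 and 3. Srl, Casq1 and Jph2 also fell, and Stim1 did not pass (-0.79 ± 0.44). Asph fell in the same fit by 1.70, and still counted 415 and 384 CPM in degeneration 2 and 3, where Ryr2 was at 12.7 and 17.3 CPM. Ryr2 is also on the heart muscle list, and the part of the heart muscle markers in the fall of these genes was not tested.

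**Figure D5:**
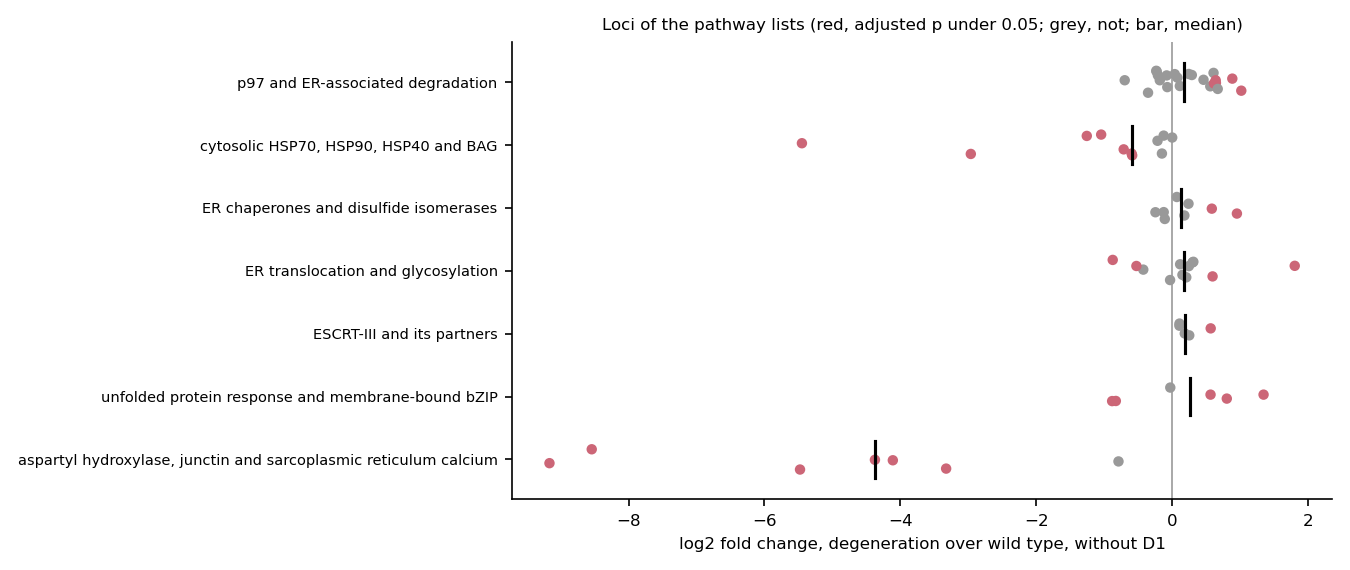
Log2 fold change without degeneration 1 (edgeR) of each tested gene on the 7 pathway lists, the 8 genes left out, with genes at an adjusted p under 0.05 in red, others in grey and the median of each list as a bar. The sarcoplasmic reticulum list has its median at -4.37, and the cytosolic chaperone list at -0.60, while the other 5 medians lie between 0.13 and 0.27.

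A deposited table of the whole series lists FPKM (fragments scaled by row length and depth) for the same rows over the same intervals. Its columns are headed control 1 to 3 and treat 1 to 3, words that no sample label uses. They were read as wild type and degeneration from that wording alone, with no column tied to a library, so its values are given as they stand, without a test. Asph was listed at 11.6, 12.6 and 17.9 FPKM in the control columns and 19.4, 6.55 and 6.89 FPKM in the treat columns. Vcp was listed at 32.1, 32.6 and 37.7 FPKM, then 49.4, 30.3 and 30.4 FPKM. Dnaja1 was listed at 7.34, 6.37 and 5.96 FPKM, then 6.29, 14.5 and 15.0 FPKM. In each of the 3 genes the first treat column lay within the control columns or beyond them on the side away from the other 2.

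Bag1 was listed at 36.1, 35.3 and 47.6 FPKM in the control columns and 56.8, 68.7 and 65.3 FPKM in the treat columns. The control columns gave Chmp5 as 13.0, 11.3 and 15.6 FPKM and the treat columns as 16.1, 32.5 and 29.7 FPKM. Erp44 stood at 7.18, 6.87 and 7.67 FPKM, then 9.08, 14.9 and 13.2 FPKM. Creb3 stood at 6.09, 6.15 and 6.08 FPKM, then 5.99, 8.83 and 9.78 FPKM, and Sec61b at 2.69, 3.91 and 2.88 FPKM, then 1.72, 6.64 and 5.71 FPKM. The 2 sets of columns did not overlap for 3 of the 8 genes (Bag1, Chmp5 and Erp44), beside 27.4% of the 12455 rows that averaged at least 1 FPKM. Summed over all rows, the columns came to 58392, 68018 and 75277 FPKM for control and 78493, 84584 and 91396 FPKM for treat, so part of any step between them also stands in these sums.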

How the data were processed

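Counts of read pairs per gene name were deposited for 6 libraries, made by the authors with featureCounts 2.0.1 over exons summed by gene name, as paired reads with both ends mapped and no chimeric pairs, per the file headers. No strand option was set, and pairs touching several rows, or marked in the alignments as mapped to several places, were left out by default. Whether the alignments marked such pairs is not known here. Bowtie 0.12.2 is named in the submitters' processing notes; the notes also name mm8 and mm9 with no role, and the build is not given in the file headers. FPKM values were deposited by the authors in a table of the whole series; how they were made is not given in the sources used here, and 6 further columns of that table were not used.

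Row intervals were intersected with GENCODE M21 exons on GRCm38 (bedtools 2.31.1, Python 3.11.15, pandas 2.3.3). A locus holds rows with at least 80% of their exon bases, and 100 bases, on 1 gene. CPM divides a row's count by the library total over all 53546 rows. Tests were edgeR 4.0.16 (R 4.3.3; TMM, filterByExpr, quasi-likelihood, Benjamini-Hochberg adjustment over all rows or loci), with DESeq2 1.42.0, limma 3.58.1 and the settings of the closing section as alternatives; SEs came from the test statistic. The edgeR steps were tested on simulated data. The check of counts against GRCm38 positions was added after the data were seen. Close copies were searched with BLAST 2.17.0.

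The genes named were the 8 members, up to 3 loci per pathway list with the smallest p and up to 2 with the highest CPM per kb, the 2 most similar rows of each member, genes overlapping a member or starting within 1000 bases of its start, and the 2 most abundant markers of each list; list members that passed the threshold and the marker genes summed were named beside their counts after their values were seen. Members and lists were chosen with earlier results of these data known. Of the genes this rule picked, 1 is not reported here.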

Additional observations from a re-analysis of the deposited data

How the results depend on the processing

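With all 6 libraries the count of rows called was 0. It was 946 by DESeq2 (843 higher), and from 0 to 8703 when each library was left out in turn, the 8703 coming without degeneration 1. Degeneration 1 alone against wild type, an alternative chosen after seeing the data, gave 2. Of the 8 genes 0 were called with all 6 libraries, and 0 to 5 with 1 library left out, 5 only without degeneration 1. Of the pathway loci 0 were called, 1 by DESeq2, and 0 to 30 with 1 library left out, 30 without degeneration 1. The other settings, namely DESeq2 size factors in edgeR, library totals, no count filter, a mean of at least 1 CPM, limma-trend, rows in register alone and loci by position, called 0 of the 8 genes.

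Bag1, Chmp5 and Erp44 kept their direction under all 16 alternatives. For degeneration 1 alone the sign turned for Vcp (0.29), Dnaja1 (-0.19), Asph (0.32) and Sec61b (-0.49). Creb3, at -0.03, became 0.21 with library totals, 0.089 with rows in register alone, 0.049 without wild type 2 and 0.016 without degeneration 3, and ran from -0.17 to 0.049 over the 6 fits with 1 library left out. Why degeneration 1 has this weight was not tested. With the replicate number as a block 0 rows and 0 of the 8 genes were called; deviations of same-numbered libraries correlated at -0.08, 0.10 and -0.12, so the numbers are not taken to pair the libraries. All 8 rows also passed at 80% and at 99% in place of 90% on their own exons. The FPKM alternatives were not run, since no test was made on those columns. Depth limits Sec61b most, at 33 to 115 counts per library.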

Other observations

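Values of the other marker lists, which belong to no comparison above, were as follows, summed over the located genes of each list. The 5 located skeletal muscle genes of 10 listed, led by Ckm and Ryr1, came to 468, 591 and 605 CPM across wild type, 803 CPM for degeneration 1, and 4.93 and 2.56 CPM for degeneration 2 and 3. Nearly all of the larger sums was Ckm, at 466, 585 and 603 CPM across wild type and 801 CPM in degeneration 1. Ryr1 counted 2.24 to 4.47 CPM across wild type, and Myh4 and Actn3 were at 0 in all wild type libraries. The 4 located red cell genes of 6 listed, led by Hbb-bs and Slc4a1, came to 299, 1612 and 4306 CPM across wild type, against 1761, 302 and 246 CPM in degeneration 1 to 3. The named genes did not move together. Hbb-bs counted 283, 1563 and 4245 CPM across wild type, against 1724, 135 and 105 CPM in degeneration 1 to 3. Slc4a1 counted 4.24, 8.95 and 4.52 CPM across wild type, against 3.46, 154 and 127 CPM in degeneration 1 to 3. The 4 located endothelial genes of 7 listed, led by Pecam1 and Eng, came to 801, 802 and 652 CPM across wild type, against 506, 349 and 359 CPM in degeneration 1 to 3. The 5 located macrophage genes of 8 listed, led by Csf1r and Lyz2, came to 162 to 269 CPM across wild type, against 133 to 162 CPM in degeneration. Here too the named genes parted. Csf1r counted 64.9 to 68.8 CPM across wild type, against 61.1, 114 and 96.8 CPM in degeneration 1 to 3. Lyz2 counted 46.7 to 122 CPM across wild type, against 42.5, 6.66 and 10.3 CPM in degeneration 1 to 3. The 5 located retina genes of 8 listed, led by Pde6b and Opn1sw, came to 5.73 to 10.2 CPM across wild type, against 5.04 to 9.27 CPM in degeneration.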
